A study of Mus musculus with 116 samples.

Results

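Aminoacyl tRNA synthetases are the enzymes that join each amino acid to its own tRNA, and they were followed here in mouse FDB1 cells, a myeloid line that grows in IL-3. The members were the 36 genes of a fixed list, 20 for the synthetases of the cytosol and 16 for those of mitochondria. Probes carried the symbols of 26 of the 36, which were measured with 28 probes among 20243 features tested. They were 18 cytosolic members (Aars, Cars, Eprs, Farsa, Farsb, Gars, Hars, Iars, Kars, Lars, Nars, Qars, Rars, Sars, Tars, Vars, Wars and Yars) and 8 mitochondrial members (Ears2, Fars2, Hars2, Sars2, Tars2, Vars2, Wars2 and Yars2). No probe with a single symbol named the other 10, which were Dars, Mars, Aars2, Cars2, Iars2, Lars2, Mars2, Nars2, Pars2 and Rars2. No filter on low values was applied, so all 26 entered every test.

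A synthetase uses ATP to activate its amino acid and then transfers it to the tRNA, and the charged tRNA carries it to the ribosome. The letter in the symbol gives the amino acid, as in Vars for valine, Nars for asparagine and Wars for tryptophan. Eprs is a fused enzyme for glutamate and proline, and the cytosolic phenylalanine enzyme needs 2 kinds of subunit, Farsa and Farsb. Several cytosolic enzymes sit together in the multisynthetase complex, held by scaffold proteins that include Aimp1 and Aimp2. A second set of genes, marked by the final 2, encodes most of the enzymes that work in mitochondria. Genes of cytosolic synthetases are known targets of ATF4, the transcription factor of the amino acid response, and of MYC, which drives growth genes.

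RNA was compared on spotted 2-colour arrays, 116 arrays in 58 dye-swap pairs. There were 18 conditions with 2 replicates each, 36 RNAs in all. Every line had been grown in 500 U/mL of mouse IL-3 with 10% fetal calf serum in Iscove's medium, and at 0 h all were washed 3 times to remove IL-3. Parental cells then received 500 U/mL of mouse GM-CSF, and FDB1 cells expressing the V449E or the FI-Delta mutant receptor were kept without any factor, each for 6, 12, 24, 48 and 72 h. Both mutants are active forms of the signalling subunit that GM-CSF and IL-3 share, and earlier work with these cells linked V449E to growth and FI-Delta to differentiation. The labels do not say whether a mutant line was a single clone, and they do not describe replicates as cultures of their own. The p-values therefore reflect the scatter of these RNAs alone, part of which may be technical.

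Levels below are log2 values of an RNA relative to the mean of the 18 RNAs of its replicate, so they rank RNAs for a gene and say nothing of its abundance. Differences are log2 differences, each over 2 RNAs against 2, and SE is their standard error in the fit. Adjusted p-values are those of limma, 2-sided, with Benjamini-Hochberg adjustment over all features, and a gene is said to rise or fall only where this value was under 0.05. That the ratios are log2 of Cy5 over Cy3 is likely but not stated in the sources used here, so all directions rest on that reading. The V449E, FI-Delta and replicate 1 GM-CSF time courses were on print run 1, which holds 90 arrays, and the replicate 2 GM-CSF time course was on print run 2, which holds 26, so in GM-CSF the replicate and the print run cannot be told apart. The RNAs come from whole cultures, in which fewer cells of a type and less RNA per cell cannot be told apart.

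**Figure D1:**
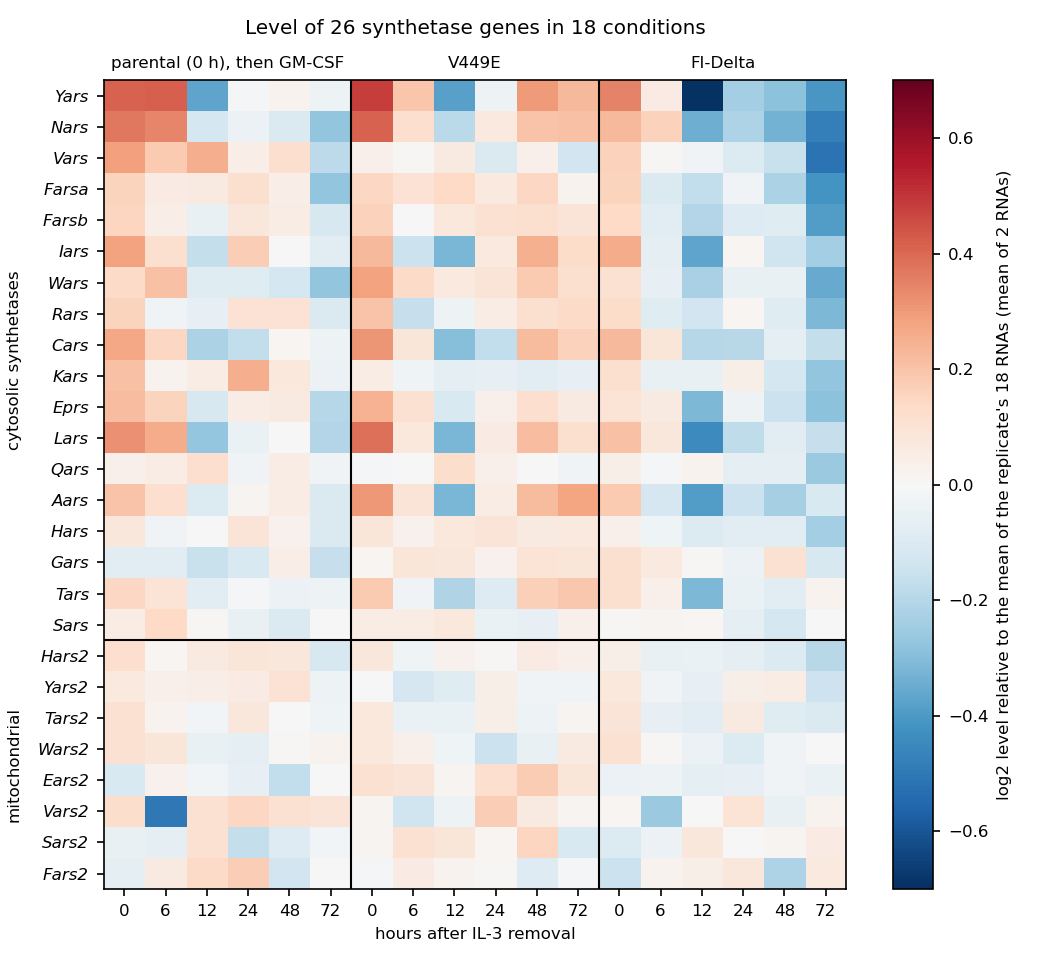
Level of the 26 measured synthetase genes in the 18 conditions, as the mean of 2 RNAs on a log2 scale relative to the mean of the replicate's 18 RNAs (colour). Rows are genes, cytosolic above and mitochondrial below the line, and columns are hours after IL-3 removal in each line. The low cells gather at 12 h in all 3 lines and at 72 h in FI-Delta and GM-CSF, and the lowest is Yars at 12 h in FI-Delta cells (-0.69).

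At 72 h the cytosolic synthetases were lower than at 0 h in FI-Delta cells and, for fewer genes, in GM-CSF. In FI-Delta cells 16 of the 26 members fell and none rose, where 8.7% of all features fell. Of the cytosolic members 13 of 18 fell (median difference -0.388), and all 18 estimates were below 0. Of the mitochondrial members 3 of 8 fell (median -0.0576). The median over all 26 members was -0.296, beside 0.00429 over all features. In GM-CSF 7 of 26 members fell, all cytosolic, and none rose, where 2.63% of all features fell, and the median over the members was -0.237. In V449E cells no member was called at 72 h, neither after adjustment nor at an unadjusted p under 0.05 (limma), and 0% of all features were called in this comparison. There 23 of the 26 estimates were below 0, 16 of them in both replicates, and the median over all 26 was -0.0625. Without replicate 1 of the FI-Delta 72 h RNAs the FI-Delta count was 8, and without replicate 1 or 2 of its 0 h RNAs it was 10 and 9. The GM-CSF count rested on 1 RNA: it was 1 without replicate 1 of the parental 0 h RNAs, and 4 without replicate 1 of the 72 h RNAs.

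Of the 7 members that fell in GM-CSF and the 16 of 26 that fell in FI-Delta cells, 6 fell in both. The share of all features that fell in both is not given here, so the overlap is only a count. These comparisons have no RNA in common. Their RNAs were also paired with each other on arrays at 0 h and 72 h and fitted together, so the 2 falls are not independent. The 6 were Nars, Vars, Farsa, Iars, Wars and Eprs, the enzymes for asparagine, valine, phenylalanine (1 subunit), isoleucine, tryptophan, and glutamate with proline. Nars had levels of 0.22 and 0.23 in the FI-Delta RNAs at 0 h (replicates 1 and 2) and of -0.51 and -0.45 at 72 h. In GM-CSF its levels went from 0.54 and 0.20 in parental cells to -0.23 and -0.32. V449E cells had Nars levels of 0.34 and 0.48 at 0 h and 0.21 and 0.20 at 72 h. In FI-Delta and GM-CSF the 72 h RNAs lay below both 0 h RNAs with no overlap, and the parental replicates were far apart. The Nars difference was -0.71 (SE 0.15, adjusted p = 0.00185) in FI-Delta, -0.65 (SE 0.15, adjusted p = 0.00962) in GM-CSF and -0.21 (SE 0.15, adjusted p = 1) in V449E cells.

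Vars had levels of 0.17 and 0.16 at 0 h and of -0.56 and -0.48 at 72 h in FI-Delta cells. The parental RNAs were at 0.31 and 0.26, and GM-CSF at 72 h at -0.31 and -0.063. In V449E cells Vars went from 0.028 and 0.041 to -0.054 and -0.21. The 72 h RNAs were lower in each line, by the most in FI-Delta cells, where the spread between replicates was under 0.1 at both times. Vars had the smallest adjusted p of any member, with a difference of -0.68 (SE 0.092, adjusted p = 3.44e-05, 1.60-fold lower) in FI-Delta cells. In GM-CSF it was -0.47 (SE 0.092, adjusted p = 0.00298), with -0.62 in replicate 1 and -0.32 in replicate 2. In V449E cells it was -0.17 (SE 0.092, adjusted p = 1).

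Both subunits of the phenylalanine enzyme fell in FI-Delta cells. Farsa, the catalytic subunit, had levels of 0.20 and 0.12 at 0 h and of -0.50 and -0.34 at 72 h. In parental cells it was at 0.18 and 0.13, and after 72 h in GM-CSF at -0.28 and -0.27. V449E cells had Farsa at 0.16 and 0.13 and then at 0.082 and -0.032. The FI-Delta and GM-CSF RNAs at 72 h were all below the RNAs of V449E cells. The Farsa difference was -0.58 (SE 0.088, adjusted p = 1.18e-04) in FI-Delta, -0.43 (SE 0.088, adjusted p = 0.00432) in GM-CSF and -0.12 (SE 0.088) in V449E cells. Farsb, the other subunit, had a difference of -0.53 (SE 0.091, adjusted p = 3.15e-04) in FI-Delta cells. Its GM-CSF difference was -0.26 (SE 0.091, adjusted p = 0.105), with -0.43 in replicate 1 and -0.092 in replicate 2, so the subunits passed together in FI-Delta cells and only Farsa passed in GM-CSF. The difference between these responses was not called for either subunit.

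Iars, whose product belongs to the multisynthetase complex, had FI-Delta levels of 0.28 and 0.24 at 0 h and of -0.35 and -0.12 at 72 h. Its parental levels of 0.34 and 0.22 became -0.094 and -0.055 in GM-CSF. Its V449E levels of 0.19 and 0.27 became 0.15 and 0.11. The groups did not overlap in any line, though the V449E gap was small beside those of the other lines. The Iars differences were -0.50 (SE 0.099), -0.36 (SE 0.099) and -0.098 (SE 0.099) in FI-Delta, GM-CSF and V449E cells.

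Wars had FI-Delta levels of 0.093 and 0.12 at 0 h and of -0.37 and -0.34 at 72 h. Its levels were 0.23 and 0.041 in parental cells and -0.27 and -0.29 after 72 h in GM-CSF. In V449E cells they were 0.26 and 0.30 and then 0.12 and 0.10. Wars thus separated in every line, with replicates farthest apart in parental cells. Its differences were -0.46 (SE 0.084) in FI-Delta, -0.41 (SE 0.084) in GM-CSF and -0.17 (SE 0.084) in V449E cells, and only the first 2 passed.

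Eprs had FI-Delta levels of 0.036 and 0.15 at 0 h and of -0.29 and -0.29 at 72 h. In parental cells it was at 0.32 and 0.11, and after 72 h in GM-CSF at -0.058 and -0.34. V449E levels went from 0.20 and 0.29 to 0.0067 and 0.11. The GM-CSF replicates at 72 h were farther apart than the nearest RNAs of the 2 times, and the groups did not overlap in any line. The Eprs differences were -0.38 (SE 0.11) in FI-Delta, -0.41 (SE 0.11) in GM-CSF and -0.18 (SE 0.11) in V449E cells. Eprs is the mean of 2 probes, which pointed the same way in both falls: in FI-Delta cells 1 probe gave -0.42 (adjusted p = 0.00122) and the other -0.35 (adjusted p = 0.203). In V449E cells the probes were apart, with -0.026 from the first and -0.34 from the other. The second probe was thus about as low in V449E as in FI-Delta cells, and the V449E mean of Eprs combines 2 unlike values.

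**Figure D2:**
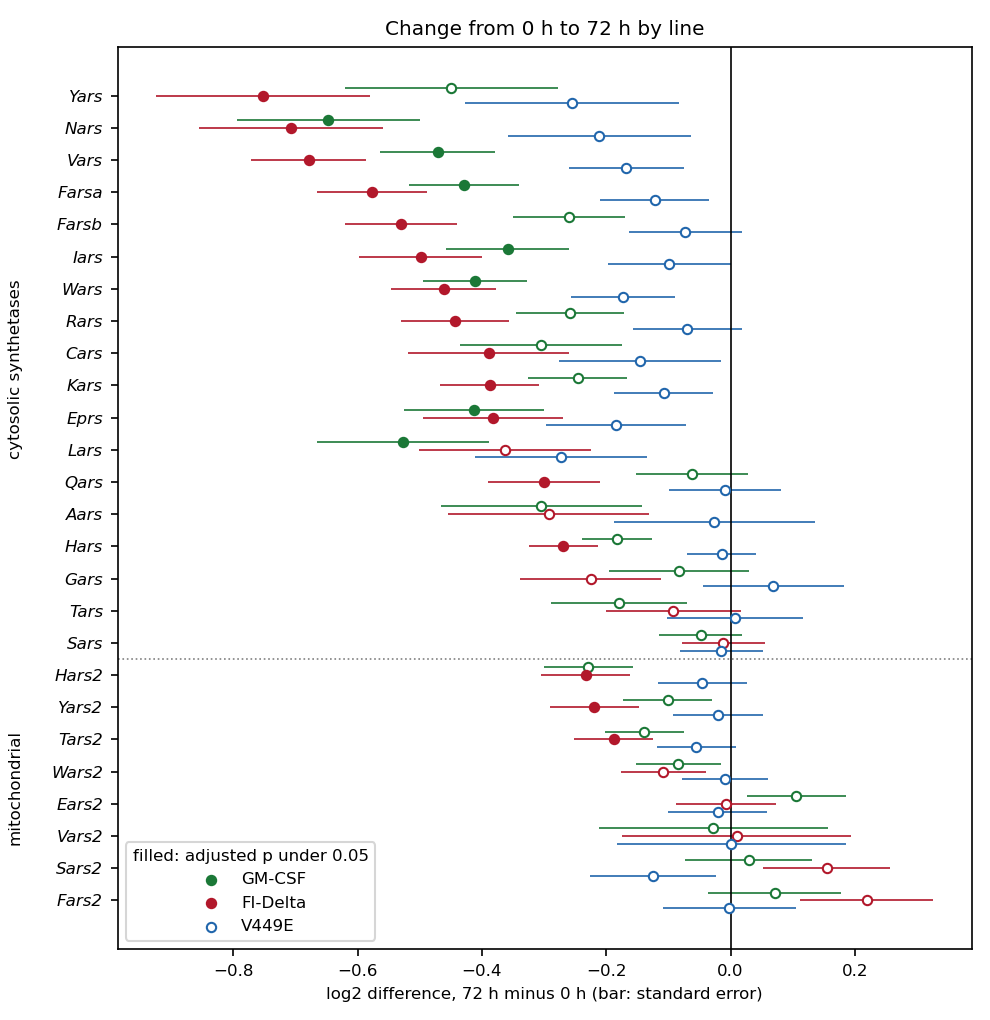
Difference between 72 h and 0 h (log2, horizontal axis) of each measured member in GM-CSF, FI-Delta and V449E cells, with the standard error as a bar and filled points for an adjusted p under 0.05. All 18 cytosolic members lie below 0 in FI-Delta and in GM-CSF, and no V449E point is filled.

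The largest FI-Delta estimate belonged to Yars, the tyrosine enzyme, at -0.75 (SE 0.17, adjusted p = 0.00387). Its FI-Delta levels were 0.27 and 0.42 at 0 h and -0.63 and -0.18 at 72 h. Without replicate 1 of the 72 h RNAs the Yars difference was -0.52, and without replicate 2 of the 0 h RNAs -0.67. Its difference was -0.45 in GM-CSF (SE 0.17, adjusted p = 0.151) and -0.26 in V449E cells. Lars, the leucine enzyme, was the 1 member that fell in GM-CSF (-0.53, SE 0.14) and not in FI-Delta cells (-0.36, SE 0.14, adjusted p = 0.0805), and it was at -0.27 in V449E cells. The difference between its 2 responses was not called.

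In the multisynthetase complex 5 of 6 measured members fell in FI-Delta cells and 3 of 6 in GM-CSF, where 8.7% and 2.63% of all features fell. Most measured cytosolic members outside the complex also fell in FI-Delta cells, and some in GM-CSF. Whether the complex differed from them was not tested. Besides Iars and Eprs, the arginine enzyme Rars was at -0.44 in FI-Delta, -0.26 in GM-CSF and -0.070 in V449E cells. The lysine enzyme Kars was at -0.39 in FI-Delta, -0.25 in GM-CSF and -0.11 in V449E cells. Qars, for glutamine, was at -0.30 in FI-Delta cells, and in GM-CSF (-0.062) and V449E cells (-0.0084) it was within 1 SE of 0. These 3 passed in FI-Delta cells only, and the exception of the complex there was Lars.

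Of the remaining cytosolic members, Cars for cysteine was at -0.39 in FI-Delta (adjusted p = 0.0442), -0.30 in GM-CSF and -0.15 in V449E cells. Hars for histidine was at -0.27 in FI-Delta (adjusted p = 0.00177), -0.18 in GM-CSF (adjusted p = 0.0561) and -0.014 in V449E cells. Both passed in FI-Delta cells only. Aars for alanine was at -0.29, -0.30 and -0.026 in FI-Delta, GM-CSF and V449E cells. Gars for glycine was at -0.23, -0.083 and 0.069 in the same order. Tars for threonine was at -0.092, -0.18 and 0.0065. Sars, the serine enzyme, was nearest to 0, with -0.011, -0.048 and -0.015. None of these 4 passed in any line at 72 h.

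The mitochondrial members moved less. Hars2 was at -0.23 in FI-Delta (adjusted p = 0.0287), -0.23 in GM-CSF (adjusted p = 0.0626) and -0.045 in V449E cells. Yars2 was at -0.22 in FI-Delta, -0.10 in GM-CSF and -0.020 in V449E cells. Tars2 was at -0.19, -0.14 and -0.055. These are the 3 mitochondrial members that fell in FI-Delta cells, and each lost its call when any 1 of the 4 FI-Delta RNAs at 0 h and 72 h was left out. Hars2 and Hars are neighbouring genes in the RefSeq annotation. Wars2 was at -0.11, -0.084 and -0.0087 in FI-Delta, GM-CSF and V449E cells, and Ears2 at -0.0071, 0.11 and -0.021. Vars2 was at 0.010, -0.027 and 0.0015, Sars2 at 0.15, 0.029 and -0.13, and Fars2 at 0.22, 0.071 and -0.0019. None of these 5 passed, and the positive Sars2 and Fars2 estimates in FI-Delta cells were within about 2 SE of 0.

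Some members had already fallen at 12 h, in all 3 lines. At 12 h 10 of 26 members fell in FI-Delta cells (3.36% of all features fell), 5 of 26 in V449E cells (0.756%) and 4 of 26 in GM-CSF (1.77%), all of them cytosolic, and none rose. Iars, Lars and Yars fell in all 3 lines, and the share of all features that did so is not given here. The V449E calls at 12 h were the only ones of any member in that line at any time. Yars had the widest span of any member over the 18 conditions, from -0.69 at 12 h in FI-Delta cells to 0.48 at 0 h in V449E cells (1.17 on the log2 scale, 2.26-fold), and its values, with those of Iars and Lars, were picked out after they had been seen.

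Yars had levels of 0.27 and 0.42 at 0 h and of -0.54 and -0.84 at 12 h in FI-Delta cells. In V449E cells it went from 0.46 and 0.50 to -0.46 and -0.30. In parental cells it was at 0.61 and 0.21, and after 12 h in GM-CSF at -0.31 and -0.43. Every 12 h RNA was below every 0 h RNA of these 3 lines. The Yars difference was -1.04 (SE 0.17, adjusted p = 0.00112) in FI-Delta, -0.87 (SE 0.17, adjusted p = 0.0118) in V449E and -0.78 (SE 0.17, adjusted p = 0.0174) in GM-CSF. Iars differed by -0.63, -0.55 and -0.45 in the same order (SE 0.099 in each), and Lars by -0.65, -0.70 and -0.59 (SE 0.14 in each). These 3 genes fell both in cells given GM-CSF and in cells with a mutant receptor and no factor.

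Cars fell at 12 h in GM-CSF (-0.49, SE 0.13) and V449E cells (-0.61, SE 0.13) and was at -0.43 in FI-Delta cells (adjusted p = 0.0581). Nars fell in V449E (-0.60, SE 0.15) and FI-Delta cells (-0.57, SE 0.15) and was at -0.49 in GM-CSF (adjusted p = 0.0677). Aars fell in FI-Delta cells (-0.58, SE 0.16) and was at -0.63 in V449E cells (adjusted p = 0.0544). In GM-CSF Aars was at -0.30 (adjusted p = 0.36), a smaller estimate. Cars and Nars, and Aars in FI-Delta and V449E cells, were separated between lines by the threshold and not by estimate size. Tars (-0.43), Eprs (-0.41), Farsb (-0.34), Wars (-0.34) and Farsa (-0.33) completed the FI-Delta calls. In V449E cells these genes were at -0.39, -0.35, -0.087, -0.22 and -0.0093 in the same order. In GM-CSF they were at -0.23, -0.33, -0.20, -0.22 and -0.089, and none passed in either line. Farsa and Farsb thus had much smaller estimates in V449E than in FI-Delta cells, and Eprs did not. Vars was at -0.19 in FI-Delta, 0.029 in V449E and -0.030 in GM-CSF at 12 h, and none of these passed.

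The counts at 12 h depended on single RNAs. The 10 FI-Delta calls were 4 and 2 without replicate 1 or 2 of the 0 h RNAs, and 4 and 0 without replicate 1 or 2 of the 12 h RNAs. The 5 calls of V449E cells were 0 without either 0 h RNA, and 1 and 2 without replicate 1 or 2 of the 12 h RNAs. The 4 calls in GM-CSF were 0 without replicate 1 of the parental 0 h RNAs or of the 12 h RNAs, and 1 without replicate 2 of the 12 h RNAs. Print run 1 alone, with 1 GM-CSF replicate, called Iars and Farsb in GM-CSF, of which Iars was among the 4.

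**Figure D3:**
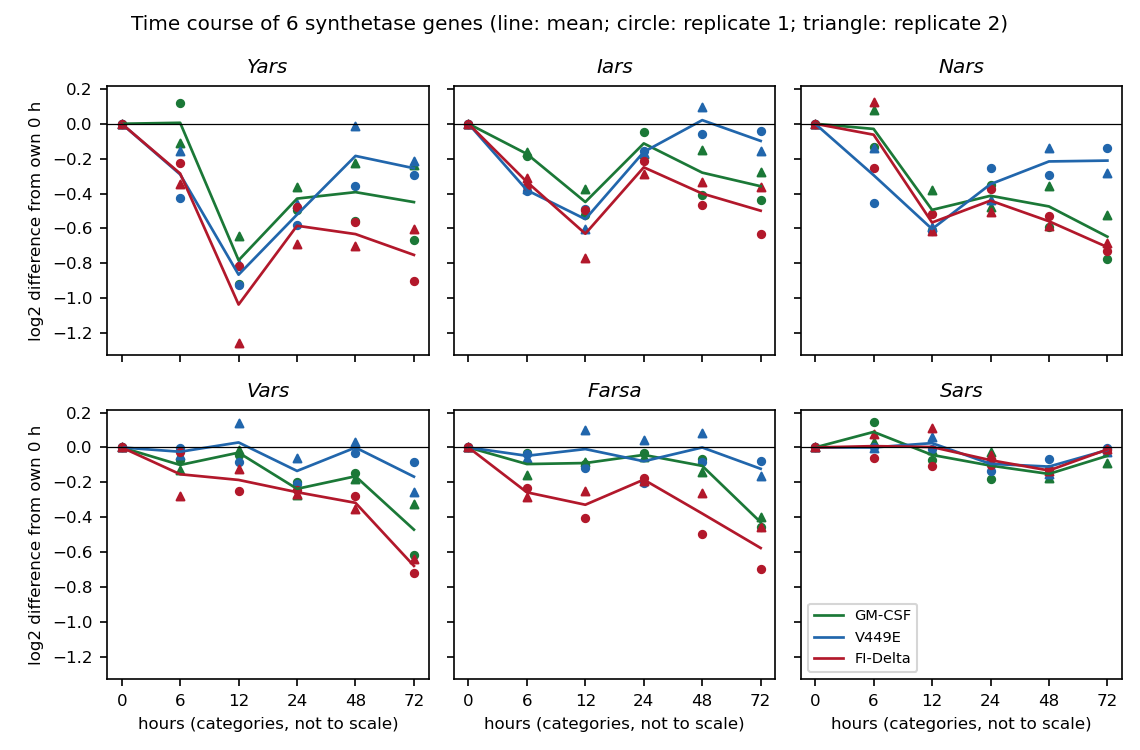
Log2 difference of each RNA from its own 0 h RNA of the same replicate (vertical axis) against hours after IL-3 removal (equally spaced categories), for 6 members in GM-CSF, V449E and FI-Delta cells, with lines for the mean of 2 replicates. Yars and Iars fell at 12 h in all 3 lines, Nars fell then in V449E and FI-Delta cells and did not pass in GM-CSF, Vars and Farsa are lowest at 72 h in FI-Delta and GM-CSF, and Sars stays near 0.

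At the other times few members were called. At 48 h in FI-Delta cells 4 of 26 fell, where 1.95% of all features fell: Yars (-0.63, SE 0.17), Nars (-0.56, SE 0.15), Iars (-0.40, SE 0.099) and Farsa (-0.38, SE 0.088). This count was 0 without replicate 1 of the 0 h or of the 48 h RNAs, and 1 (Farsa) without replicate 2 of either. No member was called at 6 h or 24 h in any line, or at 48 h in GM-CSF or V449E cells. At 6 h the shares of all features called in either direction were 0.361% in GM-CSF, 0.711% in V449E and 0.771% in FI-Delta cells, and 3, 3 and 5 members had an unadjusted p under 0.05 (limma). At 24 h they were 1.17%, 1.38% and 1.54%, and 8, 7 and 11 members had an unadjusted p under 0.05 (limma). All of these were lower except Fars2, which was higher in GM-CSF (0.24) and FI-Delta cells (0.23). At 48 h the shares were 1.3% in GM-CSF, with 6 such members, and 0.00494% in V449E cells, with 0. Shares of all features here and below are after adjustment. None is given at an unadjusted p, so they are no background for the unadjusted member counts. Over the 15 comparisons with 0 h, 19 of 26 members fell at least once, 16 of 18 cytosolic and 3 of 8 mitochondrial. The share of all features that fell at least once over the 15 is not given here, so these are only counts. Iars fell in 6 of the 15, and Nars and Yars in 5 each. Gars, Sars, Ears2, Fars2, Sars2, Vars2 and Wars2 were called in none.

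The comparison of 72 h with 12 h within a line was added after the data had been seen, and no array compared these RNAs directly. Vars fell between 12 h and 72 h in FI-Delta cells (-0.49, SE 0.092, adjusted p = 0.00399) and in GM-CSF (-0.44, SE 0.092, adjusted p = 0.00522). Its levels at 12 h were -0.083 and 0.036 in FI-Delta cells and 0.27 and 0.25 in GM-CSF, all above the 72 h RNAs given before. Farsa also fell in GM-CSF (-0.34, SE 0.088, adjusted p = 0.0209). In V449E cells Iars went the other way and rose from -0.30 and -0.33 at 12 h to 0.15 and 0.11 at 72 h (0.45, SE 0.099, adjusted p = 0.022). These were 1 of 26 members lower in FI-Delta (1.97% of all features), 2 of 26 lower in GM-CSF (2.95%) and 1 of 26 higher in V449E cells (1.07%). In V449E cells Yars (0.61, adjusted p = 0.0642), Aars (0.60, adjusted p = 0.0536), Tars (0.40, adjusted p = 0.0575) and Cars (0.46, adjusted p = 0.0636) had positive estimates in both replicates that missed the threshold. The FI-Delta call was lost without replicate 2 of the 12 h RNAs or replicate 1 of the 72 h RNAs. The GM-CSF count was 0 without replicate 1 of the 72 h RNAs and 1 without any other of its 4 RNAs. The V449E call of Iars was lost whichever of its 4 RNAs was left out, and without replicate 2 of the 72 h RNAs Tars was called in its place.

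**Figure D4:**
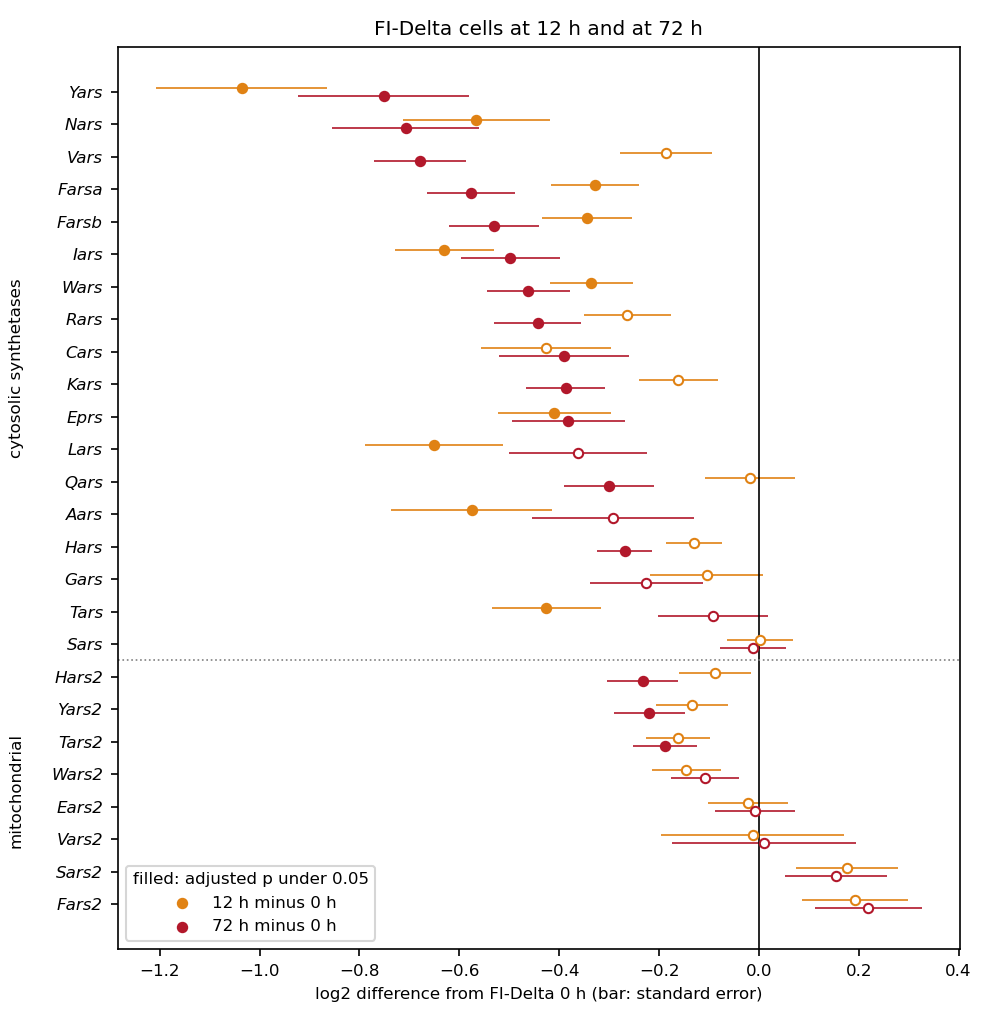
Log2 difference from FI-Delta 0 h (horizontal axis) of each measured member at 12 h and at 72 h, with standard errors as bars and filled points for an adjusted p under 0.05. Vars, Rars, Cars, Kars, Qars, Hars, Hars2, Tars2 and Yars2 are filled at 72 h only, and Lars, Aars and Tars at 12 h only; the comparisons share the 0 h RNAs, and of these genes only Vars passed the test of 72 h against 12 h.

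Promoters are shown for Yars, Iars, Aars and Tars, the 4 members that fell at 12 h in FI-Delta cells and whose promoter holds the core of the C/EBP-ATF response element, the kind of site that ATF4 binds with a C/EBP partner. The element was searched as TGATGNAA and the E-box, the kind of site that MYC binds with MAX, as CACGTG, both on either strand. Each promoter runs from 250 bases before to 50 after the RefSeq start of the gene (GRCm38.p6), 5′ to 3′ along the gene, with the matches to both motifs in capitals. Yars lies at chr4:129189653-129189952 on the plus strand, Iars at chr13:49681880-49682179 on the plus strand, Aars at chr8:111033592-111033891 on the plus strand and Tars at chr15:11399609-11399908 on the minus strand.
Yars: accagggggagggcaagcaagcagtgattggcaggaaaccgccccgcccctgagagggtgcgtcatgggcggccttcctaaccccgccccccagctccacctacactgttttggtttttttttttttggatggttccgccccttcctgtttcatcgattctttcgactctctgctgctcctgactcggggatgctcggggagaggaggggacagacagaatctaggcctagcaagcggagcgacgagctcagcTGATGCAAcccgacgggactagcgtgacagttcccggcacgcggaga
Iars: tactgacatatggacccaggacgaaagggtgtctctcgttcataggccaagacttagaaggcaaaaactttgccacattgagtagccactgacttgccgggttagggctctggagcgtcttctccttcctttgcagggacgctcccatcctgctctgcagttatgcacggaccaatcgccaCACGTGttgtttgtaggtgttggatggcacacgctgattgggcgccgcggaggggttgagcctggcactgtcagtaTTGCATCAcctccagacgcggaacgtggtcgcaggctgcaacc
Aars: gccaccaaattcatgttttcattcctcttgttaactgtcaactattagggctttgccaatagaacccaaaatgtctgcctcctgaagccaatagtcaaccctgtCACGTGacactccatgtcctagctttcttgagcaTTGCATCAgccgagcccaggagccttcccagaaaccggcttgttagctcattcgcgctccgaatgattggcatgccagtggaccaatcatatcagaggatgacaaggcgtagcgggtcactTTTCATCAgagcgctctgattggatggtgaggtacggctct
Tars: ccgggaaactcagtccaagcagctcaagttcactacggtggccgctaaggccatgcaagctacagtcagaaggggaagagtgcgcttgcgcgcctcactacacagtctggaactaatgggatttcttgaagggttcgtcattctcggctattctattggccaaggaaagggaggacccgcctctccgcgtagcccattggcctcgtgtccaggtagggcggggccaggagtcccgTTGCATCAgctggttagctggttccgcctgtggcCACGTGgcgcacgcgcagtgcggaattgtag

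RefSeq promoters were matched for 18 of the 26 measured members, and those of Cars, Hars, Lars, Nars, Rars, Vars, Wars and Hars2 were not. TGATGNAA was in 5 of the 18, Yars, Iars, Aars, Tars and Gars. It is held by 3.97% of all 32851 promoters, or by 4.51% when counted by gene. CACGTG was in 5 of the 18, Iars, Aars, Tars, Farsb and Ears2. It is held by 7.15% of all promoters, or by 8.09% when counted by gene. The words TGATGCAA and TTGCATCA are the same site on either strand, and 1 of them is in each of the 4 printed promoters. Relative to the start, its first base is at 4 in Yars, 8 in Iars, -112 in Aars and -15 in Tars. Aars has another match at 10, and the Gars match begins at -30. The E-box begins at -69 in Iars, -146 in Aars and 20 in Tars. Among the members with a matched promoter, TGATGNAA was in 4 of the 7 that fell at 12 h in FI-Delta cells and in 1 of the 11 others, and CACGTG also in 4 of 7 and 1 of 11. At 72 h each motif was in 2 of the 9 that fell and in 3 of the 9 others. A match is only a description of the sequence, and binding was not measured.

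Atf4 and Myc were both on the arrays, and the RNA of Atf4 was low at 12 h in every line. Atf4 differed from 0 h by -1.12 (SE 0.23) in FI-Delta, -1.32 (SE 0.23) in V449E and -1.31 (SE 0.23) in GM-CSF at 12 h, and all 3 passed. At 72 h it was lower in GM-CSF (-0.83, SE 0.23, adjusted p = 0.0347) and did not pass in FI-Delta (-0.40, SE 0.23, adjusted p = 0.289) or V449E cells (-0.27, SE 0.23). In V449E cells it rose between 12 h and 72 h (1.06, SE 0.23, adjusted p = 0.0215). Myc fell at 12 h in FI-Delta (-0.94, SE 0.16) and V449E cells (-0.63, SE 0.16) and was at -0.27 in GM-CSF (adjusted p = 0.414). At 72 h Myc fell in FI-Delta cells (-0.59, SE 0.16, adjusted p = 0.012) and was at -0.044 in GM-CSF and -0.20 in V449E cells. The part of either factor in the synthetase values was not tested.

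The wider lists of amino acid supply and tRNA genes also held falls at 72 h, when 8.7% of all features fell in FI-Delta cells and 2.63% in GM-CSF. The shares of all features that rose are not given here. Of 24 measured genes of the ATF4 and amino acid response, 9 fell and 1 rose in FI-Delta cells (median -0.424), and 6 fell and 1 rose in GM-CSF (median -0.317). The serine synthesis genes Psat1 (-1.10, SE 0.14), Phgdh (-1.09, SE 0.11) and Psph (-0.70, SE 0.16) and the glycine-forming Shmt2 (-0.96, SE 0.12) fell in FI-Delta cells. Slc7a5 (-0.82, SE 0.17) and Slc3a2 (-0.53, SE 0.11), the chains of an amino acid transporter, and Asns (-0.64, SE 0.13), asparagine synthetase, fell there too. Asns (-0.71), Psat1 (-0.69), Shmt2 (-0.77), Slc7a5 (-0.75) and Slc3a2 (-0.77) fell in GM-CSF as well. The genes that rose were Atf5 in FI-Delta cells (0.56, SE 0.11) and Cebpb in GM-CSF (1.03, SE 0.13), both transcription factors.

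Of 30 measured tRNA maturation genes, 13 fell in FI-Delta cells and 6 in GM-CSF, and none rose (medians -0.219 and -0.134). Nsun2, which methylates cytosine in tRNA, fell by 0.85 (SE 0.10) in FI-Delta cells and by 0.58 (SE 0.10) in GM-CSF. Thg1l, which adds a guanine to histidine tRNA, was at -0.60 and -0.40, and Pus7, a pseudouridine synthase, at -0.58 and -0.38 in these lines. Xpot, which exports tRNA from the nucleus, was at -0.53 and -0.41. Of 10 measured synthetase partners, 4 fell in FI-Delta cells: Eef1e1 (-0.59, SE 0.10) and Aimp1 (-0.25, SE 0.071), both of the multisynthetase complex, Dtd1 (-0.41, SE 0.087), which removes D-amino acids from tRNA, and Aarsd1 (-0.26, SE 0.087). In GM-CSF 1 of the 10 fell, Eef1e1 (-0.34, SE 0.10). Of 9 measured genes of MYC and its partners, Myc fell in FI-Delta cells and the MAX partners Mxd1 (1.21, SE 0.23) and Mxi1 (0.43, SE 0.11) rose. Mxd1 also rose in GM-CSF (1.01, SE 0.23). None of the genes on these lists was called in V449E cells at 72 h, where 0% of all features were called.

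Markers of blood cell types moved in the same comparisons, in which 8.7% of all features fell in FI-Delta cells and 2.63% in GM-CSF. The shares of all features that rose are not given here, so the counts of markers that rose have no background beside them. At 72 h 4 of 7 macrophage markers rose in FI-Delta cells (median 0.811) and 5 of 7 in GM-CSF (median 0.889), 4 of 6 neutrophil markers rose in FI-Delta cells and 2 of 6 in GM-CSF, and 4 of 5 mast cell markers fell in each line. Of 7 progenitor markers 2 fell in FI-Delta cells and 1 in GM-CSF, 1 of 2 erythroid markers fell in GM-CSF, and no lymphoid marker of 3 was called. No marker was called at 72 h in V449E cells, where 0% of all features were called. At 12 h, when members fell in all 3 lines, no marker was called in FI-Delta or V449E cells, where 3.36% and 0.756% of all features fell. In GM-CSF 1 of 7 progenitor markers was lower at 12 h, where 1.77% of all features fell. Ratios give no level, so these markers cannot show what the cells were at 0 h. Their part in the fall of the synthetase genes at 72 h was not tested.

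Set against each other at 72 h, V449E cells had more of the cytosolic synthetase RNAs than FI-Delta cells. Of 26 members 11 were higher in V449E cells and none lower, where 9.04% of all features were higher, a large background. They were 10 of the 18 cytosolic members and Hars2, and all 18 cytosolic estimates were above 0 (median 0.358). Nars was higher by 0.68 (SE 0.15, adjusted p = 0.00202), Yars by 0.63 (SE 0.17, adjusted p = 0.0121), Farsb by 0.48 (SE 0.091), Wars by 0.47 (SE 0.084), Rars by 0.45 (SE 0.087) and Farsa by 0.44 (SE 0.088). Vars, Iars, Eprs and Hars were higher by between 0.30 and 0.38. At 48 h 4 of 26 were higher in V449E cells, where 3.55% of all features were: Yars (0.59), Nars (0.53), Iars (0.39) and Farsa (0.37). The 48 h count was 0 without replicate 2 of the V449E RNAs or replicate 1 of the FI-Delta RNAs, and 2 without replicate 2 of the FI-Delta RNAs. The 72 h count was 6 without replicate 1 of the FI-Delta RNAs and 7 without replicate 1 of the V449E RNAs. Farsa, Farsb, Hars, Nars, Rars and Wars passed whichever of the 4 RNAs was left out.

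The lines were also compared at 0 h. There V449E cells were above FI-Delta cells in 17 of 26 estimates and below in 9 (median 0.0448), and no member passed. Among members higher in V449E cells at 72 h, the 0 h difference was 0.19 (SE 0.15) for Nars and 0.18 (SE 0.084) for Wars. It was 0.15 (SE 0.11) for Eprs and 0.14 (SE 0.17) for Yars, and below 0 for Farsa (-0.010), Iars (-0.034) and Vars (-0.13). No member was called between V449E and parental cells at 0 h, where 0.736% of all features were called in either direction, and 2 members had an unadjusted p under 0.05 (limma), Vars lower by 0.25 and Ears2 higher by 0.21 in V449E cells. With direct arrays alone 2 members were called there and with print run 1 alone 1. No member was called between FI-Delta and parental cells at 0 h (0.109% of all features; 0 members at an unadjusted p under 0.05), under any setting tried. A missed threshold does not show equal levels, since the SE of a difference was between 0.056 (Hars) and 0.18 (Vars2).

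The change from 0 h to 72 h was then compared between lines. It was lower in FI-Delta than in V449E cells for 3 of 26 members, where 2.12% of all features were lower: Vars (-0.51, SE 0.13), Farsb (-0.46, SE 0.13) and Farsa (-0.45, SE 0.12). The count was 0 without either FI-Delta 0 h RNA, replicate 1 of the FI-Delta 72 h RNAs, replicate 2 of the V449E 0 h RNAs or replicate 1 of the V449E 72 h RNAs. It was 1 without replicate 1 of the V449E 0 h RNAs or replicate 2 of the V449E 72 h RNAs. Between FI-Delta and GM-CSF no member's change was called (0.00494% of all features in either direction), and 1 member, Farsb (-0.27, SE 0.13), had an unadjusted p under 0.05 (limma). The direct comparison of FI-Delta with GM-CSF at 72 h called no member either (0.983% of all features), and 7 members had an unadjusted p under 0.05, all lower in FI-Delta cells, the largest being Yars (-0.37, SE 0.17) and Vars (-0.33, SE 0.092, adjusted p = 0.0888). Without replicate 1 of the GM-CSF 72 h RNAs 1 member was called there. These comparisons share RNAs with the time courses, so they are not separate evidence.

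The median gap between the 2 RNAs of a condition was 0.048 (Yars2) to 0.16 (Lars). Single pairs lay much farther apart, among them Aars at 6 h in FI-Delta cells (-0.48 and 0.24). Yars at 6 h in GM-CSF (0.73 and 0.11) was another. The RNA of Vars2 was at -1.02 in replicate 1 and 0.017 in replicate 2 after 6 h in GM-CSF, which gives a difference from 0 h of -0.62 (SE 0.18, adjusted p = 0.147). That gene's SE was the largest of the members.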

How the data were processed

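The authors deposited 1 normalised log2 ratio per probe and array; per the submitters' processing notes limma was used, with no version, background correction or normalisation method given in the sources used here, and per the labels the spots of 2 print runs were put in 1 order after normalisation. The log2 base and the direction (Cy5 over Cy3) are not stated and were taken as likely. Signal intensities were not used, so no value has a known signal over background, and precision is limited by how many arrays there are. Array medians lay between -0.0165 and 0.0106. Of 23040 probes 1243 controls were left out. Probes with 1 symbol (16651) were averaged per symbol, symbols were updated through Entrez IDs, and probes with no symbol (5009) or several (137) stayed single. Dye-swap pairs (r from -0.653 to -0.0327) were averaged with signs turned. A least-squares fit of each replicate's pairs then gave 36 RNA levels. These went into limma 3.58.1 (R 4.3.3; lmFit and eBayes, all 18 conditions, replicate number as a block, 17 residual degrees of freedom), 2-sided, with Benjamini-Hochberg adjustment over 20243 features and a threshold of 0.05. The replicate number is a block because every array pairs RNAs of 1 replicate. The code was tested on simulated data. Members called in both GM-CSF and FI-Delta cells at 72 h were given in full, and from other lists at most 8 called genes were eligible. The members, lists and motifs were chosen with earlier results of these data known. Alternatives were no block, single probes, direct arrays alone, centred arrays, print run 1 alone and leaving out each RNA.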

Additional observations from a re-analysis of the deposited data

Results flagged for a closer look

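The change from 0 h to 72 h differed between FI-Delta and V449E cells for 3 members by the test of the difference itself (limma, Benjamini-Hochberg over all features). Vars, for valine, had a difference of responses of -0.51 (SE 0.13, adjusted p = 0.0323), with -0.64 in replicate 1 and -0.38 in replicate 2. Farsb, a subunit of the phenylalanine enzyme, had a difference of responses of -0.46 (SE 0.13, adjusted p = 0.0488), with -0.44 and -0.48. Farsa, the other subunit, had -0.45 (SE 0.12, adjusted p = 0.0439), with -0.62 and -0.29. Both replicates went the same way for each gene, and leaving out 1 of the 8 RNAs moved the adjusted p over the ranges 0.0314 to 0.146 for Vars, 0.0315 to 0.343 for Farsb and 0.0354 to 0.234 for Farsa. Groups of 2 RNAs are too small for a test of single outlying RNAs.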

How the results depend on the processing

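No value of a member called at 72 h changed its direction under any alternative. Leaving out the replicate block moved the 6 h to 48 h calls in V449E cells from 5 to 8 and, for the added comparison of 72 h with 12 h in that line, from 1 to 5, and ended no call of a named member at 72 h. Direct arrays alone gave 7 calls in GM-CSF at 6 h to 48 h in place of 4, 10 in V449E cells in place of 5, 2 at 0 h between V449E and parental cells in place of 0, 7 in place of 3 for the FI-Delta change minus the V449E change, and 0 in place of 2 and 0 in place of 1 for 72 h against 12 h in GM-CSF and V449E cells. Print run 1 alone, which leaves 1 replicate of GM-CSF, gave 1 at 0 h between V449E and parental cells, 1 for the FI-Delta change minus the V449E change, and 1, 2 and 2 for 72 h against 12 h in GM-CSF, FI-Delta and V449E cells; at 72 h it called 5 members in GM-CSF, of which 3 (Farsa, Vars and Wars) were among the 7 and 2 (Farsb and Kars) were not, and 13 in place of 16 in FI-Delta cells. Leaving out 1 RNA leaves an arm with a single RNA, assumed to vary like the other conditions, and gave 1 to 6 calls in GM-CSF and 8 to 12 in FI-Delta cells at 72 h, 0 to 6, 3 to 17 and 0 to 6 at 6 h to 48 h in GM-CSF, FI-Delta and V449E cells, 6 to 10 between V449E and FI-Delta cells and 0 to 1 between FI-Delta and GM-CSF at 72 h, 0 to 2 for the FI-Delta change minus the V449E change, and 0 to 1 for each of the comparisons of 72 h with 12 h. Vars, Farsa, Farsb, Hars, Kars, Nars, Rars and Wars kept their FI-Delta calls at 72 h in all 4 such fits, and in GM-CSF no member did. The cause of these moves was not tested, beyond the fewer RNAs or arrays in each fit. With 2 RNAs a condition and a median SE of 0.0891 over all features, small changes could not be detected.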
